A study of Sus scrofa with 12 samples.

Results

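The genes that attach ubiquitin to proteins and take it off again were followed through 12 SMART-seq libraries of porcine (Sus scrofa) embryos. The members were the genes of the count table whose symbol was that of an E2 ubiquitin-conjugating enzyme (UBE2 followed by a letter), a cullin (CUL1 to CUL9) or a ubiquitin-specific protease (USP followed by a number), or was SKP1, SKP2, RBX1, BTRC or FBXW7. This rule used gene names only and found 88 of the 29329 genes in the table, namely 29 E2 genes, 12 genes of the SKP1-cullin class and 47 USP genes. Of these, 85 passed the filter on low counts and were tested among 17995 genes, and CUL9, USP20 and USP50 were not. No row of the table carried the symbol SKP1. The table of gene names used here gives that name to ENSSSCG00000038628 and the name UBE2NL to ENSSSCG00000000908, and both are described below without being counted as members. UBE2N, UBE2F and UBE2L3 had no row under those symbols and were not analysed here. USP6NL fits the naming rule but encodes a GTPase-activating protein of Rab proteins and not a protease.

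The libraries formed 4 groups of 3, named after their titles as con-2c and con-4c (controls) and si-2c and si-4c (injected). Oocytes from slaughterhouse ovaries of Long White gilts were matured and fertilised in vitro with Landrace semen, and each library was a pool of several embryos. The si groups were injected with si-CCNB2, a short interfering RNA against cyclin B2, and the con groups carry the label blank control. The methods of the study describe the controls both as normal embryos and as a negative control for the injection, so a difference between si and con cannot be told apart from the injection itself. The stage in the tissue label is the opposite of that in the title in all 12 libraries, and exchanging the stages would change the sign of every difference between 2c and 4c but not the libraries compared. Nothing in the labels ties a library to its own batch of oocytes or boar, so the p-values measure only the spread between these pools.

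Ubiquitin is passed from an activating enzyme (E1) to a conjugating enzyme (E2) and then, with the help of a ligase (E3), to a target protein, and chains of ubiquitin can send that protein to the proteasome. In SCF ligases the cullin CUL1 is the scaffold, RBX1 holds the E2, and SKP1 carries an F-box protein such as SKP2, BTRC or FBXW7 that selects the target, whereas other cullins work with other adaptors. Ubiquitin-specific proteases reverse the reaction on proteins that include histones. In oocytes and cleaving embryos this system removes cyclins at the end of each division and clears proteins stored by the oocyte.

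Library totals were between 27785233 and 39510908 counts, and between 82 and 87 of the 88 members had at least 1 count in a library. Levels are given as CPM, counts scaled to a common library size after TMM scaling (a factor per library that offsets a few very abundant genes). CPM is not divided by transcript length, so levels are compared between groups and not between genes. CCNB2, the targeted gene, was between 444 and 487 CPM in con-2c libraries, 17.8 and 28.8 for si-2c, 429 and 510 for con-4c and 40.3 and 46.8 for si-4c, so that the 6 si libraries were below the 6 con libraries. Of the oocyte and cleavage embryo markers, the summed level of the 11 in the table was 22892 ± 2901 CPM (SD, n = 3, as for every value of this form) for con-2c, 10936 ± 869 for si-2c, 10485 ± 498 for con-4c and 23567 ± 1122 for si-4c. BTG4 made up most of that sum, with averages of 18571 CPM in con-2c, 7897 in si-2c, 7682 in con-4c and 19671 in si-4c. OOEP (1338, 440, 371 and 1027 CPM in those groups) and ZP4 (1124, 482, 528 and 812 CPM) were also lower for con-4c and si-2c. Some markers of the list had another order, such as DPPA2, at 36.8, 87.5, 171 and 39.8 CPM in those groups, and NLRP5, ZAR1 and ZP3 averaged at most 37.2 CPM in any group. Of these 11 markers, 2 had a positive and 9 a negative log2 fold change in con-4c versus con-2c. Of the cumulus and granulosa cell markers, FSHR, LHCGR, CYP19A1, CYP11A1, STAR, FOXL2 and HAS2 averaged under 1 CPM in every group, and the sum of that list (302 to 376 CPM for con-2c, 181 to 208 for si-2c, 187 to 195 for con-4c and 302 to 311 for si-4c) was mostly VCAN. The 4 sperm markers in the table summed to at most 9.53 CPM in a con-2c library and 11.8 in a si-4c library and to at least 15.5 for con-4c and 14.9 for si-2c, while the blood and immune markers averaged a sum of 1.36 CPM for con-2c, 2.35 for si-2c, 4.63 for con-4c and 1.39 for si-4c. VCAN averaged 334, 184, 177 and 295 CPM in that order of groups, while TNFAIP6, another cumulus marker, was low and ran the other way, at 0.316, 0.848, 1.04 and 0.0900 CPM. Of the 7 cumulus markers tested, 5 had a positive and 2 a negative log2 fold change in con-4c versus con-2c. BTG4 and VCAN were thus lower, and the summed sperm and blood markers higher, for con-4c and si-2c than for the other groups. Most of the sperm difference was that of HSPA1L (0.289, 4.54, 5.52 and 0.0386 CPM for con-2c, si-2c, con-4c and si-4c) and ODF2 (8.42, 12.3, 11.4 and 10.3 CPM), while CRISP2 had 0.188, 0.145, 0.154 and 0.0796 CPM, and of the blood markers HBB and LYZ were not higher for si-2c than si-4c. Their part in the results on the members was not tested.

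The test was edgeR's quasi-likelihood test of the 4 group means, with p-values adjusted over all genes, and a gene was called higher or lower at an adjusted p below 0.05 with at least a 2-fold change. Between the control groups, 5 of the 85 members were called with con-4c above con-2c (CUL2, UBE2J1, UBE2QL1, USP3 and USP49) and 1 with con-4c below con-2c (UBE2V2), or 5.88% and 1.18%, against 14.4% and 3.25% of all genes tested. In si-2c versus con-2c, 2 members were called higher (UBE2J1 and USP49) and 0 lower, against 10.7% and 1.8% of all genes. In si-4c versus con-4c, 1 was called higher (UBE2V2) and 8 lower (CUL2, FBXW7, UBE2J1, UBE2QL1, UBE2Z, USP3, USP31 and USP49), against 3.12% and 15.8%. In si-4c versus si-2c, 1 was called higher (UBE2V2) and 5 lower (FBXW7, UBE2J1, UBE2QL1, USP31 and USP49), against 1.47% and 11.9%. Without con-2c replicate 3 the members called higher became 8 in con-4c versus con-2c and 4 in si-2c versus con-2c, beside 11.7% and 8.96% of all genes in that fit. In pools of whole embryos, fewer cells of a type and less RNA per cell cannot be told apart. The difference between the shares of members and of all genes was not tested here or below.

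Small changes were more common. At an adjusted p below 0.05 with no limit on size, 19 members were higher and 18 lower for con-4c than con-2c, or 22.4% and 21.2%, against 20.7% and 15.1% of all genes. The counts were 14 and 14 in si-2c versus con-2c (16.6% and 12.3% of all genes), 22 and 16 in si-4c versus con-4c (15.1% and 21.7%), and 15 and 12 in si-4c versus si-2c (12.1% and 16.9%). The 19 became 12 without con-2c replicate 1, con-2c replicate 2 or con-4c replicate 3, the 14 higher of si-2c versus con-2c became 9 without con-2c replicate 2 or si-2c replicate 1, and the 12 lower of si-4c versus si-2c became 7 without si-4c replicate 2. By class, and with no test between classes, in con-4c versus con-2c, 3 E2 genes were higher and 9 lower, 2 SKP1-cullin genes were higher and 4 lower, and 14 USP genes were higher and 5 lower. In si-4c versus con-4c the counts were 10 and 5 for E2, 5 and 2 for SKP1-cullin, and 7 and 9 for USP. The median log2 fold change in con-4c versus con-2c was -0.32 for E2, -0.19 for SKP1-cullin, 0.17 for USP and 0.11 for all genes, and in si-4c versus con-4c it was 0.21, 0.30, -0.14 and -0.11.

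The direction of the small changes depended on how libraries were scaled. With library totals in place of TMM, the median of all genes moved by 0.27 on the log2 scale in con-4c versus con-2c, 0.39 in si-2c versus con-2c, -0.26 in si-4c versus con-4c, -0.38 in si-4c versus si-2c, 0.12 in si-2c versus con-4c and -0.65 in the interaction defined below. The any-size counts then became 32 higher and 6 lower, 43 and 2, 7 and 32, and 2 and 41 for the first 4 of these, against 29.2% and 7.37%, 33.6% and 3.77%, 7.61% and 29.4%, and 3.57% and 33.1% of all genes. All 19 members higher for con-4c than con-2c were higher under both scalings, whereas of the 18 lower members only RBX1, UBE2A, UBE2D1, UBE2D3, UBE2V2 and USP33 passed under both, and UBE2G1 and USP25 changed sign. In si-4c versus con-4c the 16 lower members were lower under both, and of the 22 higher members UBE2D1, UBE2D3, UBE2K, UBE2Q1, UBE2V2, UBE2W and USP33 alone passed under both. In si-2c versus con-2c the 14 higher members passed under both, but of the 14 lower members only UBE2V2 and USP33 did, and CUL1, CUL5, RBX1, SKP2, UBE2G1, UBE2Q2, USP15 and USP7 changed sign. In si-4c versus si-2c the 12 lower members passed under both, and of the 15 higher members only UBE2V2 and USP33 did. Values below use TMM unless stated.

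**Figure D1:**
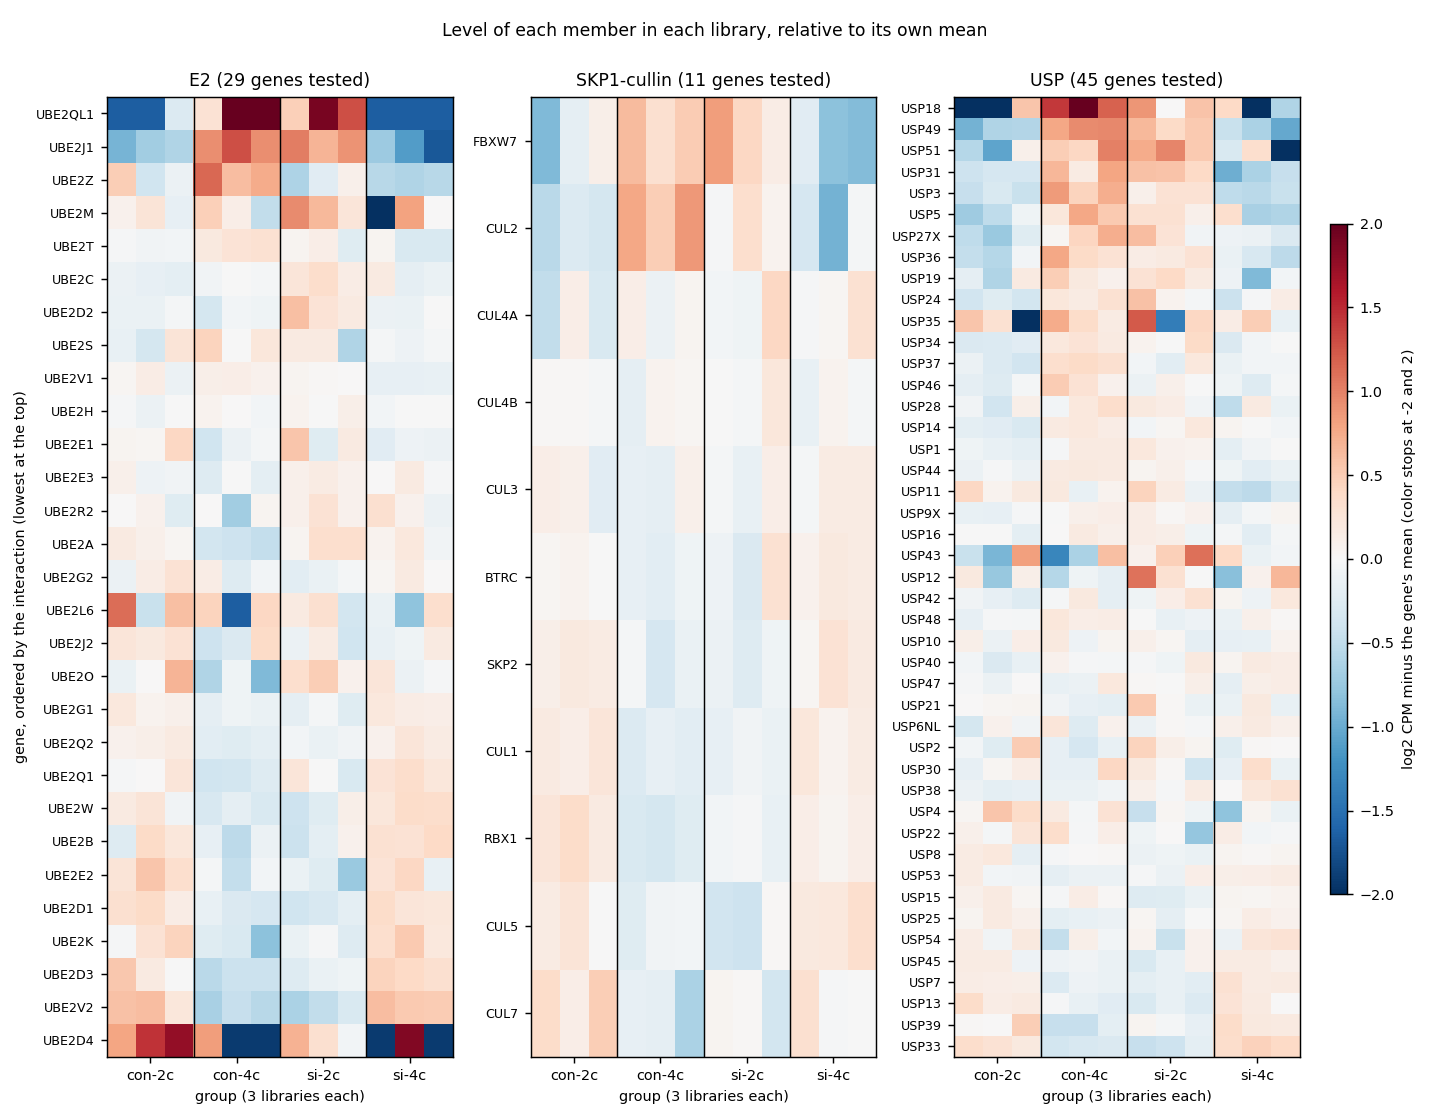
Each row is a tested member and each column 1 of the 12 libraries, in the classes E2 (29 genes), SKP1-cullin (11) and USP (45), with color giving log2 CPM minus the gene's own mean. Rows are ordered by the interaction, and members near the top of a panel (UBE2J1, FBXW7, USP49, USP3) are red for con-4c and si-2c, while those near the bottom (UBE2V2, UBE2D3, USP33) are red for con-2c and si-4c.

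**Figure D2:**
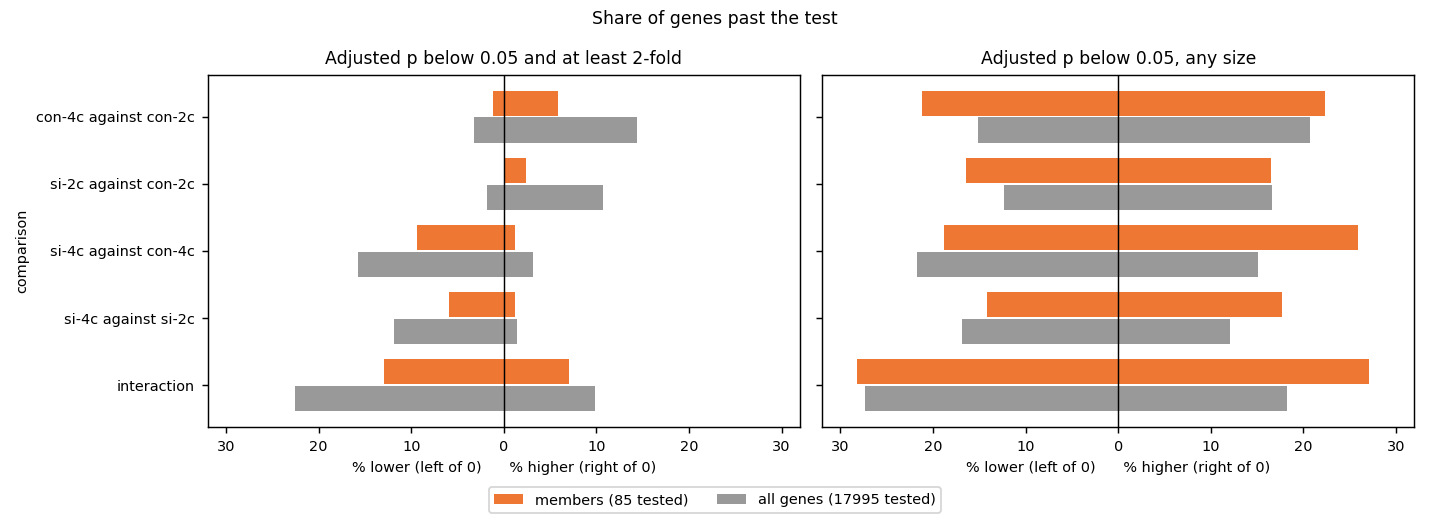
Bars give the percentage of the 85 tested members (orange) and of the 17995 tested genes (gray) that were lower (left) or higher (right) in 5 comparisons, with the 2-fold limit in the left panel and without it in the right. The orange bars are shorter than the gray ones in the left panel (5.88% against 14.4% higher in con-4c versus con-2c) and longer in some cases in the right (25.9% against 15.1% higher in si-4c versus con-4c).

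The E2 gene with the smallest p in con-4c versus con-2c was UBE2V2 (ENSSSCG00000022190, chromosome 4, 79621343 to 79652502 in Sscrofa11.1), which encodes a catalytically inactive E2 variant that pairs with UBE2N in DNA damage signalling. Its level was 1047, 1066 and 812 CPM in the con-2c libraries, 447, 496 and 564 in those of si-2c, 445, 508 and 473 for con-4c and 1071, 998 and 989 for si-4c. The con-2c and si-4c libraries all lay above the con-4c and si-2c libraries. Separation of 2 groups, stated here and for genes below, was common among all genes tested. The groups did not overlap for 48.6% of them in con-4c versus con-2c and 41.7% in si-2c versus con-2c. The shares were 50.9% in si-4c versus con-4c and 42.8% in si-4c versus si-2c. The log2 fold change was -1.04 (SE 0.11, adjusted p = 7.26e-07) in con-4c versus con-2c, -0.96 (SE 0.11, adjusted p = 3.01e-06) in si-2c versus con-2c, 1.10 (SE 0.11, adjusted p = 3.56e-07) in si-4c versus con-4c and 1.02 (SE 0.11, adjusted p = 1.46e-06) in si-4c versus si-2c. These values lie close to the 2-fold limit: between the controls the call did not hold without con-2c replicate 1 (-0.99), con-2c replicate 2 (-0.97) or con-4c replicate 1 (-0.997), that in si-4c versus si-2c without con-2c replicate 3 (0.99), si-2c replicate 1 (0.94) or si-4c replicate 1 (0.99), and a call in si-2c versus con-2c appeared without con-2c replicate 3 (-1.07) or si-2c replicate 3 (-1.05), always in the same direction. With library totals its values were -0.76 in con-4c versus con-2c, 0.84 in si-4c versus con-4c and 0.64 in si-4c versus si-2c, under the 2-fold limit. UBE2V1, its close relative, which pairs with UBE2N in chain building for signalling, did not share this pattern, at 1178 CPM on average for con-2c, 1176 for si-2c, 1247 for con-4c and 1035 for si-4c. It was lower for si-4c than con-4c with a log2 fold change of -0.27 (SE 0.07, adjusted p = 0.00713), and its value in con-4c versus con-2c was 0.08 (adjusted p = 0.414). The row named UBE2NL by the name table was at 2102 CPM on average for con-2c, 1258 for si-2c, 1077 for con-4c and 1951 for si-4c, with -0.97 (adjusted p = 5.63e-06) and 0.86 (adjusted p = 2.02e-05) in con-4c versus con-2c and si-4c versus con-4c. Related copies of UBE2N and of the UBE2V genes share sequence, and how the counting treated reads that match several genes is not given in the sources used here, so these values are uncertain.

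The UBE2D enzymes work with many ligases, RING ligases among them. The level of UBE2D3 (ENSSSCG00000035622, chromosome 8, 118218224 to 118229002) was 5291, 4142 and 3625 CPM in the con-2c libraries, 3075, 3326 and 3439 in those of si-2c, 2517, 2724 and 2705 for con-4c and 4999, 4840 and 4562 for si-4c. Each con-4c and si-2c library was below each con-2c and si-4c library, although the con-2c libraries themselves spread widely. UBE2D3 was lower for con-4c than con-2c with a log2 fold change of -0.72 (SE 0.11, adjusted p = 4.84e-05) and lower for si-2c than con-2c with a log2 fold change of -0.41 (SE 0.11, adjusted p = 0.00779), and it was higher for si-4c than con-4c with a log2 fold change of 0.86 (SE 0.11, adjusted p = 7.18e-06). With library totals the UBE2D3 value in si-2c versus con-2c was -0.00 (adjusted p = 0.989). UBE2D1 (ENSSSCG00000033323, chromosome 14, 92296314 to 92330432) stood at 92.6, 97.3 and 82.2 CPM in the con-2c libraries, 56.6, 59.6 and 65.1 in those of si-2c, 67.1, 60.9 and 59.2 for con-4c and 96.5, 88.1 and 87.00 for si-4c. Its con-2c and si-4c libraries were again all above its con-4c and si-2c libraries. The log2 fold changes of UBE2D1 were -0.54 (adjusted p = 1.57e-04) in con-4c versus con-2c, -0.59 (adjusted p = 9.85e-05) in si-2c versus con-2c, 0.54 (adjusted p = 1.66e-04) in si-4c versus con-4c and 0.58 (adjusted p = 1.07e-04) in si-4c versus si-2c. UBE2D2 differed from both: it was at 59.02 ± 2.35 CPM for con-2c, 81.3 ± 12.97 for si-2c, 56.7 ± 6.17 for con-4c and 59.6 ± 2.895 for si-4c, and was higher for si-2c than con-2c with a log2 fold change of 0.46 (SE 0.11, adjusted p = 0.00399). UBE2D4 was under 1 CPM in every library. UBE2D1, UBE2D2 and UBE2D3 are near-identical in sequence, which adds uncertainty to how reads were divided among them. UBE2E2, of the related UBE2E group, was at 6.301, 7.78 and 6.67 CPM in the con-2c libraries, 4.82, 4.45 and 3.13 in those of si-2c, 5.101, 3.78 and 5.07 for con-4c and 6.36, 7.03 and 4.75 for si-4c, and was lower for si-2c than con-2c with a log2 fold change of -0.74 (SE 0.22, adjusted p = 0.0166); UBE2E1 and UBE2E3 did not pass the test in con-4c versus con-2c, si-2c versus con-2c or si-4c versus con-4c.

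UBE2C and UBE2S are the E2 enzymes of the anaphase-promoting complex, the ligase that marks cyclin B for destruction; UBE2C starts ubiquitin chains and UBE2S extends them. UBE2C (ENSSSCG00000007423, chromosome 17, 48018403 to 48021542) was at 417, 405 and 396 CPM in the con-2c libraries, 539.9, 582 and 503 in those of si-2c, 432, 450.4 and 444 for con-4c and 512, 399 and 413 for si-4c. The si-2c libraries were above all con-2c and con-4c libraries, and 1 si-4c library reached the range of si-2c. UBE2C was higher for si-2c than con-2c with a log2 fold change of 0.42 (SE 0.09, adjusted p = 0.00198) and lower for si-4c than si-2c with a log2 fold change of -0.29 (SE 0.09, adjusted p = 0.0203), while its values in con-4c versus con-2c and si-4c versus con-4c were 0.12 (adjusted p = 0.317) and -0.0027 (adjusted p = 0.987). UBE2S (ENSSSCG00000035344, chromosome 6, 59565001 to 59570484) was at 64.3, 55.8 and 85.04 CPM in the con-2c libraries, 80.6, 80.7 and 46.9 in those of si-2c, 96.8, 70.5 and 82.8 for con-4c and 69.3, 66.4 and 68.99 for si-4c. Its groups overlapped in con-4c versus con-2c and in si-2c versus con-2c, with log2 values of 0.29 (adjusted p = 0.248) and 0.02 (adjusted p = 0.955), and no comparison passed the test.

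UBE2A and UBE2B act with RAD18 and with histone-modifying ligases, UBE2T serves the Fanconi anemia pathway, and UBE2W attaches ubiquitin to protein N termini. UBE2A was at 113, 108 and 103 CPM in the con-2c libraries, 104, 127 and 126 in those of si-2c, 77.4, 75.2 and 72.2 for con-4c and 105, 115 and 95.5 for si-4c, so that con-4c alone was low. It was lower for con-4c than con-2c with a log2 fold change of -0.53 (SE 0.09, adjusted p = 2.43e-04), its value in si-2c versus con-2c was 0.14 (adjusted p = 0.308), and it was higher for si-2c than con-4c with a log2 fold change of 0.67 (SE 0.09, adjusted p = 2.09e-04). UBE2B, by contrast, passed in si-4c versus con-4c (0.59, adjusted p = 0.0148) and si-4c versus si-2c (0.50, adjusted p = 0.0438), UBE2W passed in con-4c versus con-2c (-0.39, adjusted p = 0.0134) and si-4c versus con-4c (0.58, adjusted p = 7.93e-04), and UBE2T was higher for con-4c than con-2c with a log2 fold change of 0.31 (adjusted p = 0.0359). UBE2K, an E2 that builds ubiquitin chains, stood at 9.897, 12.3 and 13.7 CPM in the con-2c libraries, 9.23, 9.88 and 8.39 in those of si-2c, 8.56, 8.15 and 5.69 for con-4c and 12.8, 14.5 and 11.7 for si-4c. Its con-4c libraries were all below its con-2c libraries, and the log2 fold changes were -0.68 (SE 0.18, adjusted p = 0.005997) in con-4c versus con-2c and 0.80 (SE 0.18, adjusted p = 0.00176) in si-4c versus con-4c.

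The E2 genes called higher in con-4c were of low count. UBE2J1 (ENSSSCG00000004317, chromosome 1, 57340622 to 57364263), an E2 anchored in the endoplasmic reticulum that serves the removal of misfolded proteins, was at 0.796, 0.951 and 1.01 CPM in the con-2c libraries, 3.26, 2.54 and 2.98 in those of si-2c, 3.06, 3.94 and 3.06 for con-4c and 0.9298, 0.694 and 0.448 for si-4c. The con-4c and si-2c libraries were all more than 2 CPM and the con-2c and si-4c libraries all about 1 CPM or less. Its log2 fold changes were 1.86 (SE 0.32, adjusted p = 1.85e-04) in con-4c versus con-2c, 1.67 (SE 0.31, adjusted p = 6.61e-04) in si-2c versus con-2c, -2.27 (SE 0.32, adjusted p = 3.10e-05) in si-4c versus con-4c and -2.08 (SE 0.32, adjusted p = 1.08e-04) in si-4c versus si-2c. UBE2J2, its relative in the same membrane, did not pass in any comparison. UBE2QL1 had 0, 0 and 3 counts for con-2c, 8, 23 and 18 for si-2c, 5, 22 and 29 for con-4c and 0 in each si-4c library. Against a floor of 3 counts over the si-4c group, the pooled counts of UBE2QL1 gave ratios of 20.7 for con-4c and 13.3 for si-2c. These ratios do not allow for the spread between libraries of the higher group, so they are not lower limits. Its ratio of con-4c to con-2c was 19.95 (95% exact counting interval 6.49 to 99.7). This gene passed the filter through con-4c and si-2c, and its calls remain in the counts of called members. Its call in con-4c versus con-2c (adjusted p = 0.0371) did not hold without con-2c replicate 1, con-2c replicate 2, con-4c replicate 2, con-4c replicate 3, si-2c replicate 2 or si-2c replicate 3, where the adjusted p was between 0.0559 and 0.123. With only the 2 groups compared in the fit, 4 members were called higher in con-4c versus con-2c, beside 15.1% of all genes. In such fits 7 were called lower in si-4c versus con-4c and 4 in si-4c versus si-2c, beside 16.8% and 11.7%. The E2 median in si-4c versus con-4c was 0.21 with the fitted value of UBE2QL1 or with its ratio. It could not differ, since both values lie on the same side of the median. UBE2Z, an E2 charged by UBA6, was at 1.496, 0.773 and 0.953 CPM in the con-2c libraries, 0.658, 0.884 and 1.12 in those of si-2c, 2.37, 1.62 and 1.79 for con-4c and 0.6898, 0.665 and 0.687 for si-4c, with -1.50 (SE 0.41, adjusted p = 0.00805) in si-4c versus con-4c and 0.84 (adjusted p = 0.112) in con-4c versus con-2c. UBE2M, the E2 for NEDD8, which activates cullins, was under 1 CPM in every library and passed in no comparison.

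**Figure D3:**
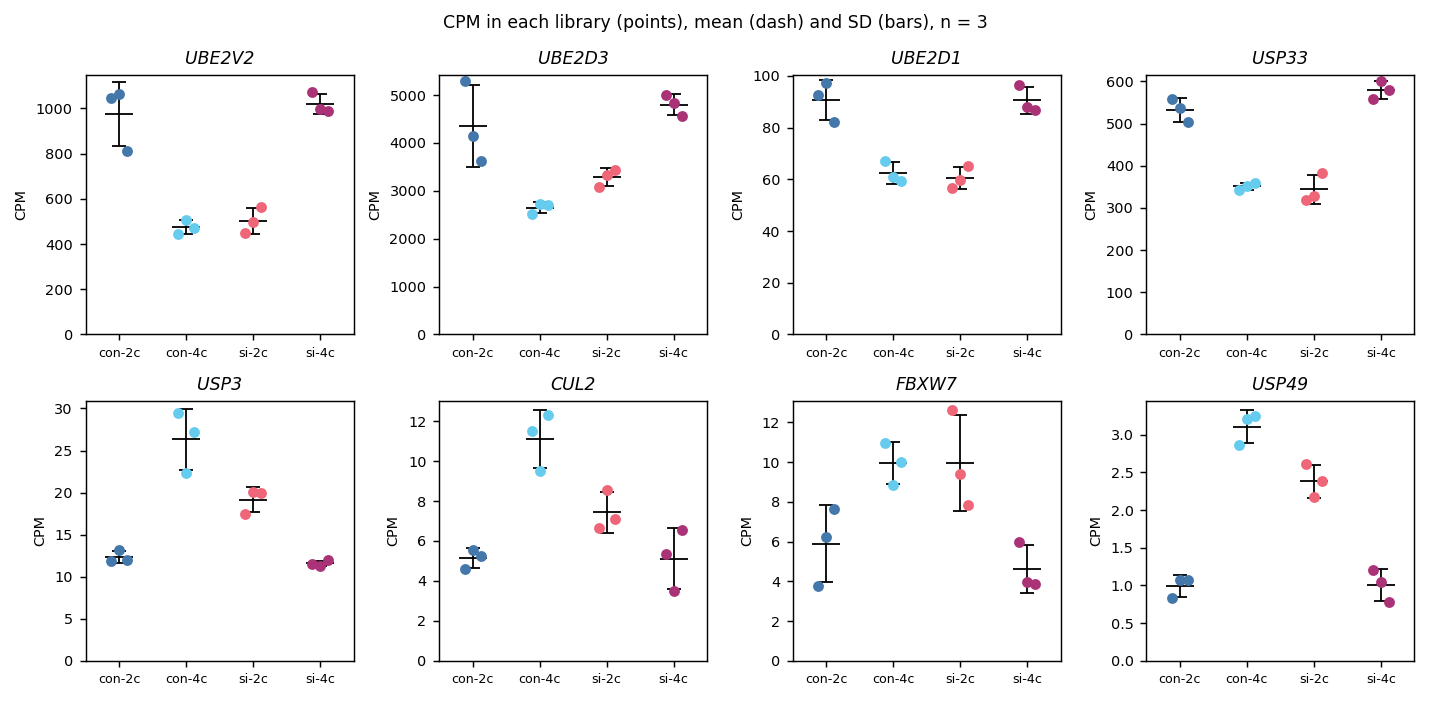
CPM in each of the 12 libraries is shown for 8 members, with the mean as a dash and the SD as bars (n = 3), on axes that start at 0. UBE2V2, UBE2D3, UBE2D1 and USP33 are low in con-4c and si-2c, USP3, FBXW7 and USP49 are high there, and CUL2 is highest in con-4c; FBXW7 in con-2c spreads from 3.79 to 7.62 CPM.

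In the SKP1-cullin class, RBX1, CUL1, SKP2 and CUL7 were lower and CUL2 and FBXW7 higher for con-4c than con-2c. RBX1 (ENSSSCG00000034230, chromosome 5, 7500492 to 7515388), the RING subunit shared by most cullin ligases, was at 307, 336 and 295 CPM in the con-2c libraries, 251, 257 and 235 in those of si-2c, 209.6, 204 and 219 for con-4c and 285, 271 and 285 for si-4c. The con-2c libraries were the highest and the con-4c libraries the lowest, with no overlap. The log2 fold change of RBX1 was -0.57 (SE 0.07, adjusted p = 1.16e-05) in con-4c versus con-2c, -0.34 (SE 0.07, adjusted p = 0.00226) in si-2c versus con-2c and 0.41 (SE 0.07, adjusted p = 3.06e-04) in si-4c versus con-4c. With library totals these RBX1 values were -0.29 (adjusted p = 0.00364), 0.06 (adjusted p = 0.531) and 0.15 (adjusted p = 0.102), so the sign in si-2c versus con-2c turned. CUL1 (ENSSSCG00000015455, chromosome 9, 109454523 to 109559114), the SCF scaffold, was at 205, 199.6 and 214 CPM in the con-2c libraries, 162, 172 and 166 in those of si-2c, 150.0, 162 and 157 for con-4c and 212, 189.8 and 203 for si-4c. CUL1 was lower in con-4c and in si-2c than in con-2c, with a log2 fold change of -0.40 (SE 0.07, adjusted p = 3.05e-04) and -0.31 (SE 0.07, adjusted p = 0.00349), and higher for si-4c than con-4c, with a log2 fold change of 0.36 (SE 0.07, adjusted p = 6.94e-04). With library totals the CUL1 values in con-4c versus con-2c and si-2c versus con-2c were -0.13 (adjusted p = 0.235) and 0.09 (adjusted p = 0.443), so the direction in the latter changed with the scaling.

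SKP2, the F-box protein that targets the cyclin-dependent kinase inhibitor p27, was at 74.2, 78.6 and 76.7 CPM in the con-2c libraries, 63.2, 57.5 and 64.4 in those of si-2c, 66.5, 54.5 and 62.7 for con-4c and 70.1, 83.4 and 77.9 for si-4c. The con-2c libraries were all above the con-4c and si-2c libraries. Its log2 values were -0.32 (SE 0.09, adjusted p = 0.0125) in con-4c versus con-2c, -0.31 (SE 0.09, adjusted p = 0.0188) in si-2c versus con-2c and 0.33 (SE 0.09, adjusted p = 0.00968) in si-4c versus con-4c, and with library totals they were -0.05 (adjusted p = 0.783), 0.09 (adjusted p = 0.581) and 0.08 (adjusted p = 0.651). FBXW7 (ENSSSCG00000020879, chromosome 8, 76482027 to 76699354), the F-box protein that targets cyclin E and MYC, was at 3.79, 6.24 and 7.62 CPM in the con-2c libraries, 12.6, 9.37 and 7.85 in those of si-2c, 10.96, 8.85 and 10.01 for con-4c and 5.999, 3.96 and 3.85 for si-4c. The si-4c libraries were below all con-4c and si-2c libraries, whereas the highest con-2c library came within 1 CPM of the lowest si-2c library. FBXW7 was higher for con-4c than con-2c with a log2 fold change of 0.76 (SE 0.25, adjusted p = 0.0261) and higher for si-2c than con-2c with a log2 fold change of 0.76 (SE 0.25, adjusted p = 0.0304). It was lower for si-4c than con-4c with a log2 fold change of -1.11 (SE 0.25, adjusted p = 0.00231) and lower for si-4c than si-2c with a log2 fold change of -1.11 (SE 0.25, adjusted p = 0.00298). The last 2 fell under the 2-fold limit without si-4c replicate 3 (-0.99 and -0.996), and the last also without si-2c replicate 1 (-0.90). BTRC, the F-box protein that targets beta-catenin and EMI1, was at 59.8, 60.6 and 57.7 CPM in the con-2c libraries, 54.3, 47.5 and 71.5 in those of si-2c, 51.5, 50.3 and 54.3 for con-4c and 61.5, 66.2 and 64.9 for si-4c. It passed in no comparison, with values of -0.19 (adjusted p = 0.2296) in con-4c versus con-2c and 0.30 (adjusted p = 0.0515) in si-4c versus con-4c. The row named SKP1 by the name table, the adaptor of all F-box proteins, was at 1537, 1551 and 1226 CPM in the con-2c libraries, 1164, 1286 and 1243 in those of si-2c, 1186, 1392 and 1335 for con-4c and 1610, 1454 and 1384 for si-4c, and passed in si-4c versus si-2c alone of the comparisons between 2 groups, with 0.27 (SE 0.10, adjusted p = 0.0463).

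CUL2 (ENSSSCG00000011104, chromosome 10, 57700667 to 57829388), the scaffold of ligases with the adaptors elongin B and C, was the cullin with the largest change. Its level was 4.61, 5.56 and 5.26 CPM in the con-2c libraries, 6.63, 8.57 and 7.102 in those of si-2c, 11.5, 9.51 and 12.3 for con-4c and 5.34, 3.47 and 6.54 for si-4c. The con-4c libraries lay above all others. CUL2 was higher for con-4c than con-2c with a log2 fold change of 1.11 (SE 0.21, adjusted p = 5.24e-04) and lower for si-4c than con-4c with a log2 fold change of -1.12 (SE 0.21, adjusted p = 4.94e-04), the latter being -0.90 without si-4c replicate 2, while its value in si-2c versus con-2c was 0.53 (SE 0.21, adjusted p = 0.0712). CUL5, which uses the same adaptors, was at 81.7, 87.1 and 72.2 CPM in the con-2c libraries, 55.6, 54.5 and 73.8 in those of si-2c, 61.4, 69.4 and 70.02 for con-4c and 83.5, 83.9 and 92.1 for si-4c, and its value was -0.39 (SE 0.11, adjusted p = 0.0156) in si-2c versus con-2c and 0.37 (SE 0.11, adjusted p = 0.01699) in si-4c versus con-4c; with library totals the first became 0.02 (adjusted p = 0.9299). CUL7, the scaffold that binds FBXW8, was at 29.7, 25.2 and 32.4 CPM in the con-2c libraries, 23.9, 23.5 and 17.8 in those of si-2c, 20.7, 20.3 and 14.9 for con-4c and 28.7, 22.8 and 22.8 for si-4c. It was lower for con-4c than con-2c with a log2 fold change of -0.64 (SE 0.16, adjusted p = 0.00379) and higher for si-4c than con-4c with a log2 fold change of 0.41 (SE 0.16, adjusted p = 0.0482). CUL3, which takes BTB proteins as adaptors, was at 99.2, 96.9 and 77.2 CPM in the con-2c libraries, 87.8, 81.5 and 98.7 in those of si-2c, 80.4, 79.9 and 96.8 for con-4c and 88.1, 101 and 101 for si-4c. CUL4A, which takes DDB1, was at 3.88, 6.03 and 4.46 CPM in the con-2c libraries, 5.29, 5.196 and 7.32 in those of si-2c, 6.02, 5.07 and 5.69 for con-4c and 5.43, 5.67 and 6.78 for si-4c. CUL4B, its paralog, was at 106, 105 and 101 CPM in the con-2c libraries, 104, 101 and 122 in those of si-2c, 92.3, 109.7 and 106 for con-4c and 93.5, 109 and 102 for si-4c. The groups of these 3 genes overlapped in con-4c versus con-2c. None of them passed in any comparison, and their values in con-4c versus con-2c were -0.09 (adjusted p = 0.591), 0.22 (adjusted p = 0.462) and -0.02 (adjusted p = 0.896). CUL9 had 41 counts over the 12 libraries, 15 at most in 1 library, and was not tested.

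**Figure D4:**
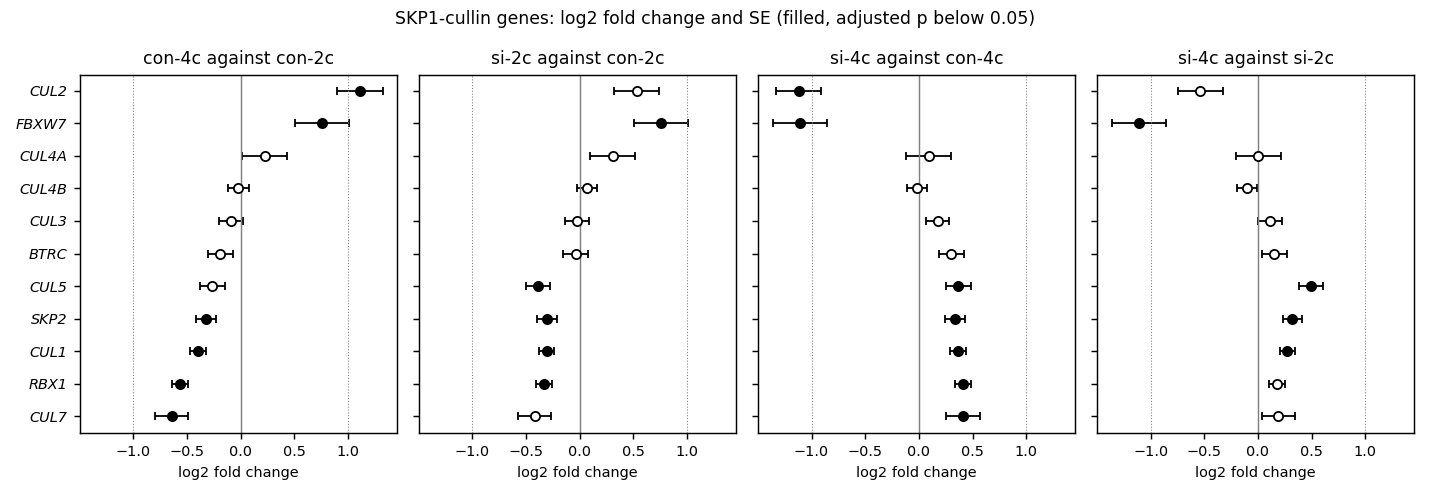
The log2 fold change of each of the 11 tested SKP1-cullin genes is plotted with its SE (bars) in 4 comparisons, filled where the adjusted p was below 0.05, with dotted lines at the 2-fold limit. CUL2 and FBXW7 lie on the opposite side of 0 from CUL1, RBX1, SKP2 and CUL7 in each panel.

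Of the USP genes whose products act on histones and chromatin, USP3, USP49, USP36, USP27X and USP44 were higher for con-4c than con-2c. USP3 (ENSSSCG00000028737, chromosome 1, 108414358 to 108515611), which removes ubiquitin from histones and is linked to S phase and the DNA damage response, was at 11.8, 13.2 and 12.02 CPM in the con-2c libraries, 17.5, 20.1 and 19.98 in those of si-2c, 29.5, 22.3 and 27.1 for con-4c and 11.5, 11.3 and 11.9 for si-4c. The order con-4c, si-2c and then con-2c and si-4c held with no overlap between the first 2 and the rest. Its log2 fold changes were 1.09 (SE 0.12, adjusted p = 2.51e-06) in con-4c versus con-2c, 0.64 (SE 0.12, adjusted p = 8.42e-04) in si-2c versus con-2c and -1.18 (SE 0.12, adjusted p = 1.04e-06) in si-4c versus con-4c, and USP3 was lower for si-2c than con-4c with a log2 fold change of -0.46 (SE 0.12, adjusted p = 0.0279). Without con-4c replicate 1 the first of these was 0.998, just under the 2-fold limit. USP49 (ENSSSCG00000001629, chromosome 7, 36978291 to 37054027), a histone deubiquitinase linked to splicing, was at 0.827, 1.07 and 1.08 CPM in the con-2c libraries, 2.61, 2.17 and 2.38 in those of si-2c, 2.86, 3.21 and 3.25 for con-4c and 1.200, 1.04 and 0.777 for si-4c. The con-4c libraries were the highest, those of si-2c came next, and con-2c and si-4c overlapped. USP49 was called in con-4c versus con-2c (1.65, SE 0.30, adjusted p = 3.10e-04), si-2c versus con-2c (1.26, SE 0.29, adjusted p = 0.003502), si-4c versus con-4c (-1.62, SE 0.30, adjusted p = 3.44e-04) and si-4c versus si-2c (-1.24, SE 0.29, adjusted p = 0.00393).

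USP36, a nucleolar protease, was at 14.6, 13.6 and 19.5 CPM in the con-2c libraries, 22.4, 22.95 and 24.7 in those of si-2c, 34.7, 26.3 and 24.8 for con-4c and 18.5, 16.3 and 14.04 for si-4c. Its con-4c and si-2c libraries were all above its con-2c and si-4c libraries, with 0.85 (SE 0.16, adjusted p = 4.15e-04) in con-4c versus con-2c and -0.81 (SE 0.16, adjusted p = 6.02e-04) in si-4c versus con-4c. USP27X, an X-linked relative of USP22, was at 8.402, 7.07 and 10.1 CPM in the con-2c libraries, 18.4, 14.4 and 11.3 in those of si-2c, 12.2, 16.04 and 19.7 for con-4c and 11.07, 10.9 and 9.74 for si-4c. The con-4c and si-2c libraries were above the con-2c libraries, with a log2 fold change of 0.91 (SE 0.20, adjusted p = 0.00185) and 0.78 (SE 0.20, adjusted p = 0.00653), and the former exceeded 2-fold without con-2c replicate 3 (1.02) or con-4c replicate 1 (1.06). USP44, which holds back the anaphase-promoting complex and acts on histones, was at 1685, 1803 and 1700 CPM in the con-2c libraries, 1913, 1957 and 1805 in those of si-2c, 2077, 2106 and 2066 for con-4c and 1731, 1586 and 1666 for si-4c. It was higher for con-4c than con-2c with a log2 fold change of 0.27 (SE 0.07, adjusted p = 0.00471) and lower for si-4c than con-4c with a log2 fold change of -0.33 (SE 0.07, adjusted p = 0.00105). USP16, a histone deubiquitinase needed for chromosome segregation, was at 677, 678 and 592 CPM in the con-2c libraries, 758, 741 and 643 in those of si-2c, 687, 771 and 735 for con-4c and 664, 591 and 666 for si-4c, and passed in none of the comparisons between 2 groups, with 0.17 (adjusted p = 0.138) in con-4c versus con-2c and 0.14 (adjusted p = 0.268) in si-2c versus con-2c. USP7, which stabilises MDM2 and many nuclear proteins, went the other way and was at 506, 497 and 495 CPM in the con-2c libraries, 396, 412 and 393 in those of si-2c, 375, 426 and 415 for con-4c and 565, 509 and 517 for si-4c. The con-2c and si-4c libraries of USP7 were above those of con-4c and si-2c, with -0.30 (SE 0.07, adjusted p = 0.00359) in con-4c versus con-2c and 0.39 (SE 0.07, adjusted p = 4.43e-04) in si-4c versus con-4c, and with library totals these values were -0.03 (adjusted p = 0.792) and 0.13 (adjusted p = 0.166). Of the 11 genes in the histone and chromatin list, these 5 higher and USP7 lower were those that passed at any size in con-4c versus con-2c, and in si-4c versus con-4c USP7 was higher and the same 5 lower. The shares of all genes higher and lower at any size were 20.7% and 15.1% in the first comparison and 15.1% and 21.7% in the second, and the difference from this list was not tested. USP11, USP16, USP21, USP22 and USP51 passed in neither.

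USP33 (ENSSSCG00000040220, chromosome 6, 135524372 to 135589742), a protease linked to centrosomes and to receptor recycling, had the smallest p of the USP genes that were lower in con-4c. It stood at 559, 536 and 503 CPM in the con-2c libraries, 320.1, 329 and 383 in those of si-2c, 342, 353 and 359 for con-4c and 558, 602 and 580.0 for si-4c. Every con-2c and si-4c library was above every con-4c and si-2c library. The log2 fold changes were -0.60 (SE 0.08, adjusted p = 1.34e-05) in con-4c versus con-2c, -0.63 (SE 0.08, adjusted p = 1.20e-05) in si-2c versus con-2c, 0.72 (SE 0.08, adjusted p = 1.69e-06) in si-4c versus con-4c and 0.75 (SE 0.08, adjusted p = 1.76e-06) in si-4c versus si-2c. USP9X, a regulator of apoptosis and cell polarity, was at 199, 196 and 218 CPM in the con-2c libraries, 246, 225 and 235 in those of si-2c, 219, 238 and 243 for con-4c and 196, 214 and 229.8 for si-4c, and passed in none of the comparisons between 2 groups. USP14, a protease of the proteasome itself, was at 284, 276 and 262 CPM in the con-2c libraries, 313, 331 and 374 in those of si-2c, 368, 375 and 357 for con-4c and 336, 320.3 and 311 for si-4c. The con-4c libraries of USP14 were above the con-2c libraries, with a log2 fold change of 0.42 (SE 0.08, adjusted p = 3.61e-04), and si-2c was above con-2c with a log2 fold change of 0.31 (SE 0.08, adjusted p = 0.00577). USP5, which takes apart free ubiquitin chains, was at 1.72, 1.99 and 2.67 CPM in the con-2c libraries, 3.51, 3.51 and 3.05 in those of si-2c, 3.32, 4.905 and 4.13 for con-4c and 3.599, 1.79 and 1.85 for si-4c, with 0.95 (SE 0.30, adjusted p = 0.0196) in con-4c versus con-2c, and this value exceeded 2-fold without con-2c replicate 3 (1.12) or con-4c replicate 1 (1.08). Its value in si-4c versus con-4c was -0.77 (adjusted p = 0.0518) and became a call without si-4c replicate 1 (-1.17).

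USP31 was at 0.955, 1.01 and 1.01 CPM in the con-2c libraries, 1.97, 1.96 and 1.72 in those of si-2c, 2.07, 1.46 and 2.28 for con-4c and 0.6299, 0.8097 and 0.926 for si-4c. The con-4c and si-2c libraries were again the higher, with 0.96 (SE 0.34, adjusted p = 0.0342) in con-4c versus con-2c, -1.29 (SE 0.34, adjusted p = 0.00654) in si-4c versus con-4c and -1.25 (SE 0.34, adjusted p = 0.0101) in si-4c versus si-2c, and without con-4c replicate 2 the first was 1.12. Of proteases that act in the cell cycle and DNA repair, USP37, which stabilises cyclin A, was higher for con-4c than con-2c with a log2 fold change of 0.60 (SE 0.10, adjusted p = 1.32e-04), and USP1, which acts in the Fanconi anemia pathway, with a log2 fold change of 0.26 (SE 0.08, adjusted p = 0.0188). USP48 was also higher, with a log2 fold change of 0.24 (SE 0.09, adjusted p = 0.04002). USP13 was lower in the same comparison with a log2 fold change of -0.36 (SE 0.10, adjusted p = 0.00934), and USP28, USP45 and USP47 did not pass. In that list of 7 genes, 3 were higher and 1 lower for con-4c than con-2c, beside 20.7% and 15.1% of all genes. USP39, a splicing factor without protease activity, was lower for con-4c than con-2c with a log2 fold change of -0.57 (SE 0.16, adjusted p = 0.0117), and USP34, a protease of the WNT pathway, was higher with a log2 fold change of 0.49 (SE 0.10, adjusted p = 7.78e-04). USP18, the interferon-induced protease that acts on ISG15, was at 0, 0 and 0.338 CPM in the con-2c libraries, 0.439, 0.214 and 0.343 in those of si-2c, 0.658, 1.26 and 0.553 for con-4c and 0.2999, 0 and 0.119 for si-4c, and did not pass in con-4c versus con-2c (adjusted p = 0.1201). USP24 and USP46 were the remaining USP genes higher in con-4c, with a log2 fold change of 0.56 (SE 0.17, adjusted p = 0.0154) and 0.46 (SE 0.11, adjusted p = 0.00372), and USP25 the remaining lower one, with a log2 fold change of -0.27 (SE 0.08, adjusted p = 0.0124), a sign that library totals turned. Every other USP gene tested did not pass in that comparison. USP20 and USP50 had 29 and 21 counts over the 12 libraries and were not tested.

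The members were also counted by level. The 28 members with a mean of at least 100 CPM over the 12 libraries included 1 called between con-4c and con-2c (UBE2V2, lower), where 2.46% of the 1588 genes at such levels were called higher and 6.49% lower. The 23 members between 1 and 10 CPM included 3 called higher, and of the 5445 genes at those levels 18.3% were called higher. The any-size shares also varied with level. In si-4c versus con-4c, 13 of the 28 members at 100 CPM or more passed higher and 4 lower. Of all genes at such levels, 44.6% and 17.6% did. Of the 28 members between 10 and 100 CPM, 8 passed higher and 5 lower, beside 32.4% and 21.6% of all genes there. Of all 17995 genes tested, 6460 averaged under 1 CPM, as did 6 members (UBE2D4, UBE2M, UBE2QL1, USP18, USP35 and USP51).

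Whether the difference between title stages was the same in control and si embryos was tested by the interaction, (si-4c - si-2c) - (con-4c - con-2c). It was called higher for 6 members (UBE2D1, UBE2D3, UBE2E2, UBE2K, UBE2V2 and USP33) and lower for 11 (CUL2, FBXW7, UBE2J1, UBE2QL1, USP19, USP27X, USP3, USP31, USP36, USP49 and USP5), beside 9.87% and 22.5% of all genes, which is 7.06% and 12.9% of the members. At any size 23 members passed higher and 24 lower, beside 18.2% and 27.3% of all genes. With library totals the any-size counts were 4 and 44, beside 7.09% and 43.2% of all genes, and UBE2D1, UBE2D3, UBE2V2 and USP33 were higher under both scalings. The interactions called higher with TMM that fell under the 2-fold limit with library totals were those of UBE2D1 (0.46), UBE2D3 (0.60), UBE2K (0.54), UBE2E2 (0.47) and USP33 (0.69). USP15, a protease of signalling and splicing proteins, passed in opposite directions, with 0.32 (SE 0.10, adjusted p = 0.0179) with TMM and -0.33 (adjusted p = 0.0147) with library totals. Among the members called higher, the largest interaction was that of UBE2V2, 2.06 (SE 0.15, adjusted p = 6.87e-09), followed by those of USP33, 1.35 (SE 0.11, adjusted p = 3.53e-08), and UBE2D3, 1.27 (SE 0.15, adjusted p = 2.86e-06). Of the members called lower, UBE2QL1 had a fitted value of -10.96, which is no bound because its si-4c libraries hold 0 counts, and UBE2J1 had -3.94 (SE 0.45, adjusted p = 1.86e-06). USP49 had -2.89 (SE 0.42, adjusted p = 2.37e-05), FBXW7 -1.87 (SE 0.35, adjusted p = 3.73e-04), USP3 -1.82 (SE 0.18, adjusted p = 2.25e-07) and CUL2 -1.65 (SE 0.30, adjusted p = 2.37e-04). UBE2D1 had 1.12 (adjusted p = 1.69e-06), UBE2K 1.19 (adjusted p = 8.43e-04), UBE2E2 1.12 (adjusted p = 0.00708), USP36 -1.37 (adjusted p = 8.01e-05), USP27X -1.38 (adjusted p = 6.90e-04), USP31 -2.21 (adjusted p = 0.00111) and USP5 -1.43 (adjusted p = 0.0105). USP19, a protease of the endoplasmic reticulum, was at 4.77, 3.54 and 6.12 CPM in the con-2c libraries, 6.58, 7.098 and 6.09 in those of si-2c, 7.64, 6.16 and 5.72 for con-4c and 5.04, 2.89 and 5.17 for si-4c. Its interaction of -1.03 (SE 0.34, adjusted p = 0.0217) was not past the test without con-2c replicate 2 (-0.84), con-4c replicate 1 (-0.89), si-2c replicate 2 (-0.97) or si-4c replicate 2 (-0.80), where the adjusted p was between 0.0521 and 0.0643. UBE2E2 fell under the 2-fold limit without si-2c replicate 3 (0.96), and the interaction of UBE2Z, -1.22 (adjusted p = 0.0909), was called without con-2c replicate 1 (-1.53).

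The difference between title stages within the controls and that within the si embryos share no library. Their signs were opposite in 64 of the 85 members, or 75.3%, and in 77.0% of all genes. Of the 37 members past the adjusted p in the controls, 35 had the opposite sign in si embryos, or 94.6%, as did 94.4% of all genes past it. Of these 37 members, 21 passed in the opposite direction and 0 in the same direction. Of the 6447 genes of the whole table past it, 3942 passed in the opposite direction and 20 in the same direction. The difference between the shares of members and of all genes was not tested.

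**Figure D5:**
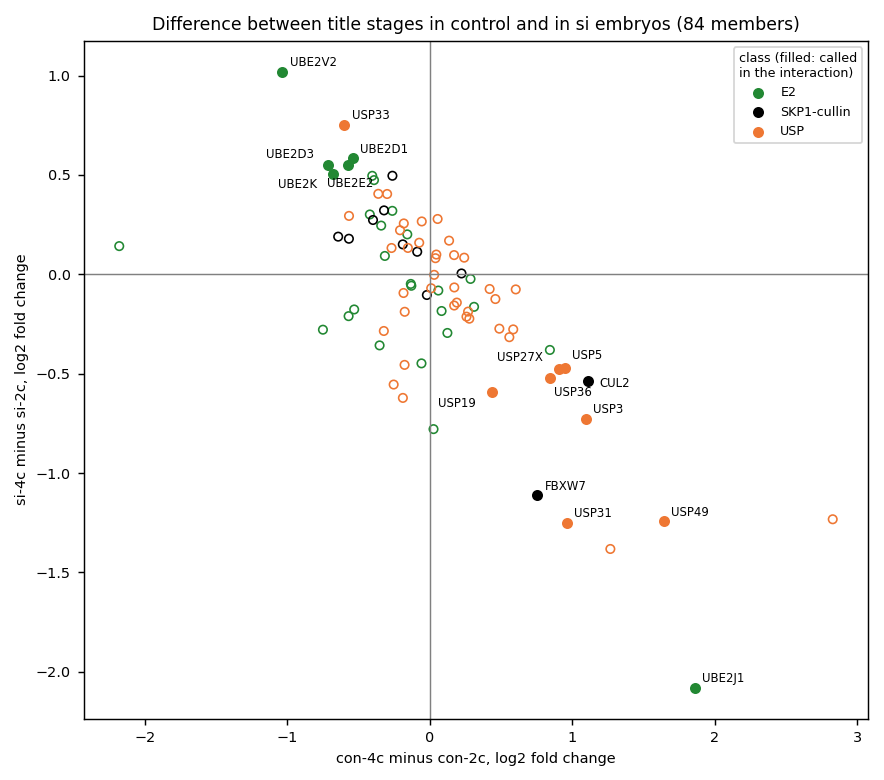
For each tested member except UBE2QL1, the log2 fold change con-4c minus con-2c (horizontal) is plotted versus si-4c minus si-2c (vertical), with members called in the interaction filled and named. UBE2V2 and USP33 lie at the upper left (-1.04 and 1.02 for UBE2V2) and UBE2J1 at the lower right (1.86 and -2.08).

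The remaining comparisons cross title stage and treatment. In si-4c versus con-2c, 0 members were called in either direction by edgeR and 0 by DESeq2, 0 passed at any size by edgeR (1 higher without si-4c replicate 1) and 1 by DESeq2, where 0.0333% of all genes were called higher and 0.3% lower and 0.106% and 0.567% passed at any size. At an unadjusted p below 0.05, 3 members were higher and 4 lower, beside 4.95% and 6.35% of all genes. In si-2c versus con-4c, 0 members were called by edgeR, beside 0.161% and 1.63% of all genes, while DESeq2 called 1 lower (UBE2Z, log2 fold change -1.14). At any size 2 passed higher (UBE2A and UBE2D2) and 3 lower (USP15, USP3 and USP37), beside 2.22% and 5.32% of all genes, with 9 higher and 9 lower at an unadjusted p below 0.05, where 8.07% and 11.3% of all genes were. UBE2D2 was higher with a log2 fold change of 0.52 (SE 0.11, adjusted p = 0.00647), and USP15 and USP37 were lower with a log2 fold change of -0.26 (SE 0.07, adjusted p = 0.03701) and -0.36 (SE 0.10, adjusted p = 0.0348). With library totals the 2 higher members passed as well and the 3 lower did not. The any-size counts were then 7 higher and 0 lower, beside 4.98% and 3.45% of all genes. The 2 higher became 6 without con-2c replicate 3 and 5 without si-2c replicate 3, and the 3 lower became 0 without con-4c replicate 1, con-4c replicate 3, si-2c replicate 1 or si-2c replicate 2, and it was 1 with con-4c replicate 2, si-4c replicate 2 or si-4c replicate 3 left out. Where si-2c versus con-2c gave 0 called lower, 14 members had passed at any size and 19 were lower at an unadjusted p below 0.05, as were 15.8% of all genes, and DESeq2 also called 0.

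Lists of other genes of the ubiquitin system were counted as well, and their difference from the members was not tested. Of 15 tested ubiquitin, ubiquitin-like and E1 genes (18 listed, with NAE1 matched by its gene ID to a row that the count table names TERB1 and that was called in none of these comparisons), con-4c versus con-2c gave 2 called higher and 0 lower, against 1 and 3 in si-2c versus con-2c, and 1 and 2 in si-4c versus con-4c. The shares of all genes in these comparisons were 14.4% and 3.25%, 10.7% and 1.8%, and 3.12% and 15.8%, and they apply to the 2 lists that follow as well. UBB, a polyubiquitin gene, averaged 16707, 7699, 12733 and 16997 CPM (con-2c, si-2c, con-4c, si-4c), with -1.12 (SE 0.14, adjusted p = 1.09e-05) in si-2c versus con-2c. RPS27A, which encodes ubiquitin fused to a ribosomal protein, averaged 4.42, 13.6, 30.6 and 4.31 CPM and was higher for con-4c than con-2c with a log2 fold change of 2.79 (SE 0.20, adjusted p = 1.10e-08). Of 45 further cullin ligase parts and regulators tested (50 listed), con-4c versus con-2c gave 6 called higher and 0 lower, against 1 and 1 in si-2c versus con-2c, and 2 and 5 in si-4c versus con-4c. CKS1B, the cofactor of SKP2, averaged 2510, 1533, 1389 and 2238 CPM with an interaction of 1.40 (SE 0.11, adjusted p = 1.92e-08), while its paralog CKS2 averaged 574, 1177, 2013 and 559 CPM and was higher for con-4c than con-2c with a log2 fold change of 1.81 (SE 0.09, adjusted p = 1.09e-10). COPS5, the subunit of the COP9 signalosome that takes NEDD8 off cullins, averaged 21.6, 10.4, 10.9 and 23.5 CPM and was lower for si-2c than con-2c with a log2 fold change of -1.05 (SE 0.18, adjusted p = 2.81e-04). ELOB, elongin B, an adaptor of CUL2 and CUL5, averaged 3.86, 7.07, 15.4 and 3.17 CPM and was higher for con-4c than con-2c with a log2 fold change of 2.00 (SE 0.17, adjusted p = 9.57e-08). Among 30 tested deubiquitinases outside the USP family (31 listed), 2 were called in each direction in con-4c versus con-2c and in si-2c versus con-2c, and 2 higher and 3 lower in si-4c versus con-4c. OTUD6B, of the OTU family, averaged 2.59, 20.3, 48.2 and 2.24 CPM and was higher for con-4c than con-2c with a log2 fold change of 4.21 (SE 0.15, adjusted p = 1.98e-12), and UCHL3, of the UCH family, averaged 338, 154, 142 and 289 CPM and was lower with a log2 fold change of -1.25 (SE 0.11, adjusted p = 8.54e-08). These lists and examples were chosen with results of these data known.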

How the data were processed

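Poly(A) RNA of embryo pools was amplified by SMART-seq and sequenced as read pairs. Per the labels, the submitters' processing notes name cutadapt 1.9, HISAT2 2.2.1, StringTie 2.1.6, DESeq2 and edgeR with the pig build Sscrofa11.1, and the authors deposited whole-number counts per gene, raw and not normalized. Which annotation release was counted, whether strand was used and how reads matching several genes were handled is not given in the sources used here. Groups followed the titles, 3 libraries each. R 4.3.3 and edgeR 4.0.16 (filterByExpr, TMM, quasi-likelihood test on 4 group means over all 12 libraries, Benjamini-Hochberg adjustment over all genes tested) gave the tests, and DESeq2 1.42.0 was the other tool. A call needed an adjusted p under 0.05 together with a log2 fold change of 1 or more in size, as in the study's methods. The script was tested on simulated counts.

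The members and lists were chosen with earlier results of these data known. Named were every SKP1-cullin gene, UBE2C, UBE2S, UBE2D3, UBE2M, UBE2N, USP7, USP9X, USP14, USP16 and USP44, up to 5 members called in each direction with the smallest p in 4 comparisons (at least 10 CPM in the higher group, E2 and USP apart), and those called in si-4c versus con-2c or si-2c versus con-4c. The other genes named, such as USP5, USP49, UBE2J1, USP19, UBE2Z, USP31, UBE2E2 and UBE2QL1, were chosen after their values were seen. Positions are those of RefSeq genes of Sscrofa11.1 matched by symbol, and no sequence was used. Replicate numbers were not used to pair libraries in the main fit. Over all genes tested, same-numbered libraries deviated from their group means with correlations between -0.0495 and 0.0290. Whether they shared a batch cannot be told from this, since 6460 of these genes averaged under 1 CPM and vary mostly by counting. No 2 replicates of a group were copies, since chi-square over degrees of freedom was 7.27 to 38.7 between them. Intervals cover counting error only. Library totals of 27785233 to 39510908 counts set the precision. Columns of the table outside the samples numbered 0. Alternatives were another scaling, filter, tool, threshold, block or fit, and leaving out each library. An item withheld for evaluation is not reported here.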

Additional observations from a re-analysis of the deposited data

Results flagged for a closer look

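In 17 members the difference between title stages was not the same in control and si embryos, by edgeR's test of the interaction (si-4c minus si-2c, less con-4c minus con-2c). These are 7.06% of the 85 members tested called higher and 12.9% called lower, beside 9.87% and 22.5% of all genes, and the difference between the shares was not tested. Among the E2 genes the log2 interaction was 2.06 for UBE2V2, 1.27 for UBE2D3, 1.19 for UBE2K, 1.12 for UBE2D1 and 1.12 for UBE2E2, and -3.94 for UBE2J1 and -10.96 for UBE2QL1, whose fitted value is no bound because its si-4c libraries hold 0 counts. In the SKP1-cullin class it was -1.87 for FBXW7 and -1.65 for CUL2. Among the USP genes it was 1.35 for USP33, and it was -2.89 for USP49, -2.21 for USP31, -1.82 for USP3, -1.43 for USP5, -1.38 for USP27X, -1.37 for USP36 and -1.03 for USP19. The stage names rest on the titles, and the tissue label gives the opposite stage in every library. Under the title names, BTG4, an oocyte gene, averaged 18571 CPM for con-2c against 7682 for con-4c, while DPPA2 averaged 36.8 against 171 CPM. With library totals the called interactions were 1 higher (UBE2V2) and 24 lower, and 12 of these calls, UBE2V2 included, were among the 17, while UBE2D3, UBE2K, UBE2D1, UBE2E2 and USP33 were no longer called. BTG4, the cumulus marker VCAN, and the summed sperm and blood markers moved with the same groups, while the cumulus marker TNFAIP6 had the opposite direction to VCAN, and their part in these values was not tested.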

How the results depend on the processing

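No called value of a named gene turned direction under any alternative. A call needs a log2 fold change of at least 1 in size. Library totals moved the median of all genes by at most 0.65 in size, which left little room for a call to turn. Smaller values did turn with that scaling, such as those of RBX1 and CUL1 in si-2c versus con-2c. The balance of the counts did turn with no minimum fold change, where more members were higher than lower in si-4c versus con-4c and in si-4c versus si-2c, and USP15 passed the interaction in opposite directions with TMM and with library totals. The replicate block changed the side of the threshold for 0 of the 245 values of named genes, took the members lower at any size in si-2c versus con-4c from 3 to 0, and left the counts of called members at 5 higher and 1 lower for con-4c versus con-2c, 2 and 0 for si-2c versus con-2c, 1 and 8 for si-4c versus con-4c, and 6 and 11 for the interaction. Counts below are members higher and lower in the order con-4c versus con-2c, si-2c versus con-2c, si-4c versus con-4c, si-4c versus si-2c and the interaction, with only the counts that moved by more than 1.5 times printed. With library totals they were 11 and 0, 8 higher, 0 higher, 0 higher, and 1 and 24, beside 17.9% and 1.27%, 16.8%, 1.28%, 0.278%, and 3.19% and 33.6% of all genes. With a filter of at least 10 CPM in 3 libraries, which tests 60 members, they were 2 and 0, 0 higher, 0 and 3, 0 and 1, and 3 and 6, beside 10.2% and 3.72%, 6.92%, 3.15% and 9.99%, 1.63% and 6.86%, and 13.6% and 17.0% of all genes. With no minimum fold change they were 19 and 18, 14 and 14, 22 and 16, 15 and 12, and 23 and 24, and 2 and 3 for si-2c versus con-4c, whose shares of all genes the text gives above. With an adjusted p under 0.01 and a log2 fold change of 2 or more in size they were 0 and 0, 0 higher, 0 and 2, 0 and 1, and 1 and 4, beside 7.59% and 0.122%, 5.27%, 0.117% and 8.29%, 0.0167% and 5.84%, and 1.74% and 13.7% of all genes. DESeq2 and its size factors each gave 0 called higher for si-4c versus si-2c (1.37% and 1.31% of all genes), and DESeq2 gave 1 called lower for si-2c versus con-4c (1.96%). Of single named genes, library totals took 8 values out of the calls (UBE2V2 in both stage comparisons and in si-4c versus con-4c, and the interactions of UBE2D1, UBE2D3, UBE2K, UBE2E2 and USP33) and brought in 19. Library totals with no minimum fold change, an alternative chosen after seeing the data, gave the any-size counts printed above, and 2, 8, 1, 5 and 7 of the members that passed at any size with TMM had the other sign there, in the order above. With 1 library left out at a time, the counts called higher ranged from 4 to 8, 2 to 4, 1 to 1, 0 to 1 and 6 to 7 in the same order, and those called lower from 0 to 1, 0 to 1, 7 to 9, 4 to 5 and 10 to 12, with 0 in every case for si-4c versus con-2c and si-2c versus con-4c. The cause of these changes was not tested, except that the filter on 10 CPM leaves fewer members to test. Depth limits most the 9 members that averaged under 1 CPM, of which CUL9, USP20 and USP50 had too few counts to be tested.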
